A study of Mus musculus with 16 samples.

Results

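Microglia are the macrophages that live in the retina, and in them 47 listed genes of DNA replication and nucleotide supply were examined among the 54532 genes of the deposited table. The members were taken by symbol from a fixed list, each had 1 row in the table, and all 47 were among the 12496 genes with enough counts to be tested. That list was chosen with earlier results of these data known, so its shares beside those of all tested genes are a description. The OIR group held 8 libraries from mice with oxygen-induced retinopathy, in which a spell of high oxygen given to pups is followed by room air, lack of oxygen in the retina and growth of disordered vessels. The nonOIR group held 8 libraries from retinas without that disease. Every mouse in both groups was of the Cx3cr1CreERT2:Rosa26-tdTomato reporter strain, in which the Cx3cr1 promoter drives the recombinase, so the label marks cells that used this macrophage gene. All were given tamoxifen (5 µl at 21 mg/ml) at postnatal day 1, and cells were taken at postnatal day 17 by sorting for tdTomato, CD11b and low CD45, without Ly6C and Ly6G. Each group had 5 libraries under the code of lane 1 and 3 under that of lane 2. The labels do not say whether the lane code also marks a batch of animals or of preparation. They also do not say that libraries come from separate animals, so p-values measure the spread between these libraries.

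A dividing cell opens its DNA at origins, where the origin recognition complex, Cdc6 and Cdt1 place a ring of Mcm proteins that later becomes the replicative helicase. Polymerases then copy the strands, held to the DNA by the Pcna clamp, while ribonucleotide reductase and related enzymes supply deoxynucleotides and Uhrf1 and Dnmt1 copy methylation marks. Many of these genes are textbook targets of E2F transcription factors, and in the healthy adult retina microglia divide rarely.

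Library totals lay between 13.6 M and 30.0 M counts (M for mega), at 25.1 ± 3.24 M in OIR and 22.3 ± 4.28 M in nonOIR (SD, n = 8 each, two-sided exact permutation p = 0.163). OIR replicate 1 and nonOIR replicate 8 were taken as outlying after the data were seen, on a measure not given here. Counts of calls without both follow the results by lane. Genes with a count numbered 16019 in OIR replicate 1, the fewest of all libraries, and up to 18619 in the others of OIR. They numbered 17592 in nonOIR replicate 8, inside the nonOIR range of 16918 to 18567. Microglial markers were high in all libraries, with a summed level of 39795 to 67616 CPM over 10 markers in OIR and 65109 to 85324 CPM in nonOIR. CPM here is the count relative to 1 M counts of the scaled library size.

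Of the 47 members, 29 were higher in OIR and 0 were lower (edgeR quasi-likelihood test, Benjamini-Hochberg adjusted p under 0.05 over all tested genes), and 18 did not pass the test. Among all tested genes 6.39% were called higher and 4.56% lower, as 798 and 570 genes. That split was 1020 and 364 with library size as the only scaling, and 675 and 647 with upper-quartile scaling. The count of members called lower was 0 with DESeq2 and with limma-voom as well, and 0 members had a negative log2 fold change with an unadjusted p under 0.05. The log2 fold change was above 0 for 47 of 47 members, against 46.5% of all tested genes, although for Gins3 the sign turned under upper-quartile scaling. Its median was 1.15 over the members and -0.03 over all tested genes. At least a 2-fold higher level was estimated for 26 members, 23 of them called, against 4.39% of all tested genes. Called members were between 1.50-fold (Rpa2) and 11.3-fold (Pole) higher in OIR. The folds of Pole, Mcm10 (11.1) and Ticrr (10.9) rest on nonOIR means of 0.314, 0.509 and 0.301 CPM. Their calls were lost in 11 of 27, 16 of 28 and 9 of 27 other settings of the analysis. Among members called in every setting, Rrm2 had the largest fold, 7.59. In bulk samples a larger share of cells in S phase and more RNA per cell cannot be told apart.

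In every OIR library the summed level of the 47 members exceeded that of every nonOIR library. The sums in OIR replicates 1 to 8 were 808, 879, 1769, 1115, 1200, 1506, 1521 and 1720 CPM, while those in nonOIR ran from 637 to 750 CPM. The means were 1315 ± 368 CPM in OIR and 696 ± 43.7 CPM in nonOIR (SD, n = 8 each), a ratio of 1.89. OIR replicates 1 and 2 lay lowest, close to the nonOIR range, and replicates 3 and 8 highest. Replicate 1 or 2 was the lowest OIR library for 38 members, 23 and 15 of them. Replicate 3, 6, 7 or 8 was the highest for 44 members. Every OIR library lay above every nonOIR library for 6 members, Mcm4, Mcm6, Fen1, Rrm2, Uhrf1 and Hells, against 1.34% of all tested genes. Of the 29 called members, 21 had all 8 OIR libraries above the nonOIR median and the other 8 had 7.

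**Figure D1:**
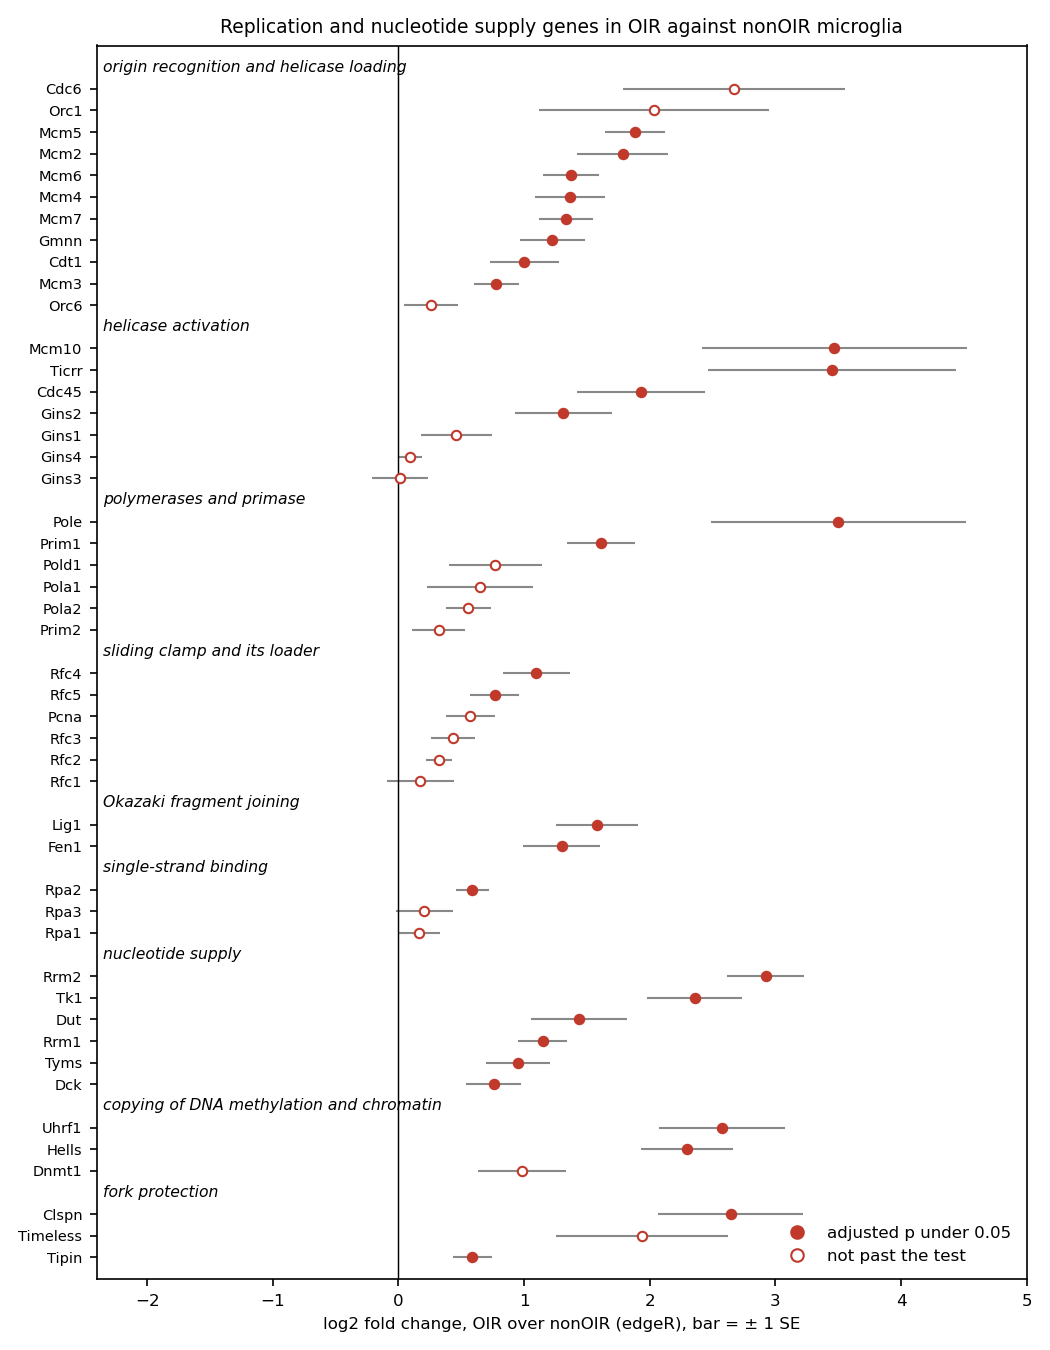
Log2 fold change of OIR over nonOIR for each of the 47 members, grouped by role, with bars of 1 standard error; filled points passed the test at an adjusted p of 0.05 and open points did not. All points lie at or right of 0, from 0.01 for Gins3 to 3.50 for Pole. The standard errors are back-calculated from the test statistic.

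**Figure D2:**
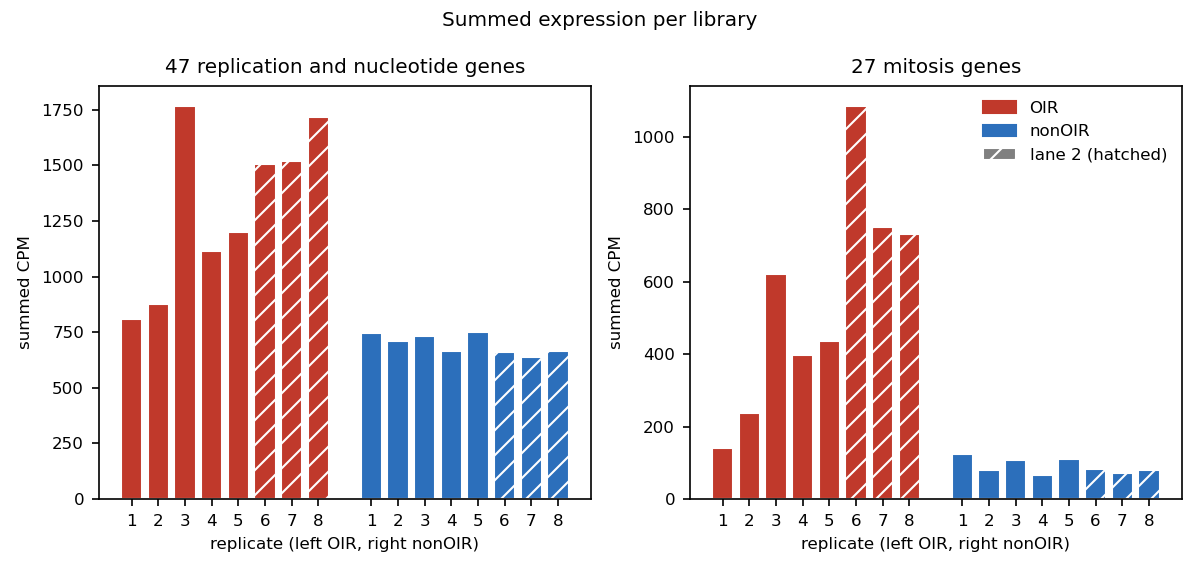
Summed CPM per library of the 47 members (left panel) and of 27 mitosis genes (right panel), with OIR libraries in red left of nonOIR libraries in blue and lane 2 hatched. OIR member sums run from 808 to 1769 CPM and nonOIR sums from 637 to 750 CPM.

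Promoter sequence was matched for 38 of the 47 members in a RefSeq table of 250 bases before to 50 after each gene start (GRCm38.p6). The 100 bases before the start are shown for 5 members called higher and 3 that were not, each chosen because it holds a match in that stretch. Capitals mark matches to an E2F core (TTGGCGC or a form of it, namely TTCGCGC, else TTCCCGC, else TTGCCGC, on either strand, where matches may overlap each other), and the first capital of Mcm6 ends a match that begins further upstream. Mcm6 lies at chr1:128359706-128359805 on the minus strand, Hells at chr19:38930890-38930989 on the plus strand, Uhrf1 at chr17:56303237-56303336 on the plus strand (the first of its listed starts), Rrm1 at chr7:102441595-102441694 on the plus strand and Prim1 at chr10:128015115-128015214 on the plus strand. Of those not called, Orc1 lies at chr4:108579354-108579453 on the plus strand, Rpa3 at chr6:8259142-8259241 on the minus strand and Gins3 at chr8:95633459-95633558 on the plus strand.
Mcm6: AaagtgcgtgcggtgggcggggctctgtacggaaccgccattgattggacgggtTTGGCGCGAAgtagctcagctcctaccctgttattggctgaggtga
Hells: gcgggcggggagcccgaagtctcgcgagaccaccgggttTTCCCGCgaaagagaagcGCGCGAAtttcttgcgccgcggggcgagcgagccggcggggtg
Uhrf1: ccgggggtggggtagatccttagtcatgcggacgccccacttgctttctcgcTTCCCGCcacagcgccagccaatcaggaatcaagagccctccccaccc
Rrm1: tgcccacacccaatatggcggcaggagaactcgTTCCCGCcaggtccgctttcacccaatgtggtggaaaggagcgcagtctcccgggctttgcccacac
Prim1: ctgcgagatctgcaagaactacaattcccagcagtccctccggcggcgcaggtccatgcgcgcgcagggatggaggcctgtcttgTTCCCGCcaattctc
Orc1: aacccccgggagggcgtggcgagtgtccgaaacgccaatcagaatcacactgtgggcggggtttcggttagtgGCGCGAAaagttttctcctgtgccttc
Rpa3: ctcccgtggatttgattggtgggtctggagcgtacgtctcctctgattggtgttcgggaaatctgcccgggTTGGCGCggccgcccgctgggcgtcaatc
Gins3: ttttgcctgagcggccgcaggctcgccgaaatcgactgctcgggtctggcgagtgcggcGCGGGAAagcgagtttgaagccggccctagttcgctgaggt

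An E2F core stood in the promoter window of 24 of 38 members (63.2%), against 19.8% of 9268 tested genes and 9.57% of all 32851 promoters in the table. A member with several listed starts counted once, with a match at any of them, whereas the last share counts single promoters. Within the members the E2F core was found in 15 of 24 called genes and in 9 of 14 that were not called. The cell cycle homology element TTTGAA, known from promoters of mitosis genes, stood in 6 of 38 members (15.8%) and 14.6% of tested genes, but in 17 of 22 mitosis promoters. The E2F core was in 5 of those 22. CCAAT was found in 24 of 38 members, against 43.5% of tested genes, and in 18 of 22 mitosis promoters. A match of letters is a description and not a binding site.

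Of the 11 genes for origin recognition and helicase loading, 8 were higher in OIR, among them 5 of the ring subunits beside Mcm5 (Mcm2, Mcm3, Mcm4, Mcm6 and Mcm7). Mcm5, a subunit of the Mcm ring, ran from 25.9 to 85.5 CPM with a median of 65.9 in OIR (mean 62.6 ± 22.8) and from 11.5 to 28.1 CPM with a median of 15.5 in nonOIR (mean 16.9 ± 5.32; SD, n = 8 each). OIR replicate 2 alone lay inside the nonOIR range, and the log2 fold change was 1.88 ± 0.24 (SE, edgeR adjusted p = 0.000156). Mcm3, the ring subunit with the highest level per kb of exon, had a median of 107 CPM in OIR, between 68.3 and 166 (mean 111 ± 34.8), and a median of 61.9 CPM in nonOIR, between 47.8 and 84.5 (mean 64.9 ± 14.0; SD, n = 8 each). The ranges overlapped in 2 OIR libraries, and the difference was 0.78 ± 0.18 on the log2 scale (SE, edgeR adjusted p = 0.00914). The ranges of Mcm4 and Mcm6 did not overlap between groups. Mcm6 had 50.6 to 155 CPM in OIR and 28.3 to 49.5 CPM in nonOIR, and Mcm4 had 31.7 to 91.9 CPM in OIR and 7.09 to 29.4 CPM in nonOIR. The log2 fold changes were 1.38 ± 0.22 for Mcm6, 1.37 ± 0.28 for Mcm4, 1.33 ± 0.21 for Mcm7 and 1.78 ± 0.36 for Mcm2 (SE, edgeR adjusted p between 0.000741 and 0.00424). Mcm2 was at 5.48 CPM in OIR replicate 1, below every nonOIR library (9.16 to 22.1 CPM), and at 23.8 CPM or more in the other OIR libraries. Exons of Mcm7 share 557 bases with Ap4m1 and Cops6 on the opposite strand and with Mir25 and Mir93 on the same strand. Reads of Ap4m1 and Cops6 there cannot be told apart without strand, and those of Mir25 and Mir93 not even with it.

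Cdt1, which brings the ring to origins, and Gmnn, the geminin protein that holds Cdt1 in check, were both called higher, by 1.00 ± 0.27 and 1.22 ± 0.26 on the log2 scale (SE, edgeR adjusted p = 0.0246 and 0.00528). Without OIR replicate 5 Cdt1 had an adjusted p of 0.0503 and was no longer called. Their ratio in CPM per kb of exon, Gmnn over Cdt1, averaged 1.86 ± 0.712 in OIR and 1.87 ± 1.34 in nonOIR (SD, n = 8 each). The means differed by less than the spread, but the nonOIR libraries split by lane. In lane 1 the ratio was 0.740 to 3.01 in OIR and 0.554 to 1.61 in nonOIR. In lane 2 it was 1.94 to 2.42 in OIR and 2.30 to 4.14 in nonOIR, and this split was not tested. Cdc6, the loader that works with Cdt1, lay at 0 to 13.8 CPM in OIR, with median 5.14 and mean 5.64 ± 4.58, and at 0 to 2.37 CPM in nonOIR, with median 0.776 and mean 0.898 ± 0.807 (SD, n = 8 each). The gene was at 0 in 1 OIR and 2 nonOIR libraries, and the log2 fold change was 2.67 ± 0.88 (SE, edgeR adjusted p = 0.0582), not past the test. Among the single libraries left out, it passed only without OIR replicate 1 (adjusted p = 0.0154). Orc1, the large subunit of the origin recognition complex, ran from 0.159 to 3.46 CPM with a median of 1.70 in OIR (mean 1.74 ± 1.43) and from 0 to 1.70 CPM with a median of 0.269 in nonOIR (mean 0.422 ± 0.576; SD, n = 8 each). 3 of the nonOIR libraries had no count, 4 OIR libraries lay above all of nonOIR, and the difference was 2.03 ± 0.92 on the log2 scale (SE, edgeR adjusted p = 0.174), not past the test. Orc6, another subunit of that complex, had a median of 16.9 CPM in OIR, between 7.55 and 22.1 (mean 16.1 ± 5.33), and a median of 13.5 CPM in nonOIR, between 8.96 and 19.2 (mean 13.5 ± 3.28; SD, n = 8 each). The ranges overlapped widely, and the log2 fold change was 0.26 ± 0.21 (SE, edgeR adjusted p = 0.501), not past the test.

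Of the 7 genes for helicase activation, 4 were higher in OIR, against 1 with limma-voom. Cdc45 and the GINS subunits complete the helicase around the Mcm ring, and Mcm10 and Ticrr (treslin) help to start it. Mcm10 lay at 0 to 16.3 CPM in OIR, with median 3.74 and mean 5.46 ± 5.11, and at 0 to 1.93 CPM in nonOIR, with median 0.0496 and mean 0.509 ± 0.836 (SD, n = 8 each). Its libraries summed to 1177 counts in OIR and 74 in nonOIR, 6 OIR libraries exceeded all of nonOIR, and the difference was 3.47 ± 1.05 on the log2 scale (SE, edgeR adjusted p = 0.0405). That call was lost when any of 12 libraries was left out (OIR replicates 3 to 8 and nonOIR replicates 2, 3, 5, 6, 7 and 8), with an adjusted p between 0.0523 and 0.0929. Ticrr ran from 0 to 5.67 CPM with a median of 4.29 in OIR (mean 3.36 ± 2.28) and from 0 to 0.936 CPM with a median of 0.163 in nonOIR (mean 0.301 ± 0.362; SD, n = 8 each). 4 of the nonOIR libraries and OIR replicate 1 had no count, and the log2 fold change was 3.45 ± 0.99 (SE, edgeR adjusted p = 0.031). It lost the call without OIR replicate 5, 6 or 8 or nonOIR replicate 7 (adjusted p between 0.0527 and 0.0572). Cdc45 was higher by 1.93 ± 0.51 on the log2 scale (SE, edgeR adjusted p = 0.0198), with levels of 1.79 to 11.7 CPM in OIR and 0.0448 to 3.30 CPM in nonOIR.

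Of the 4 GINS subunits, which sit together in 1 complex, only Gins2 was called. Gins4, the GINS subunit with the highest level per kb of exon, had a median of 41.7 CPM in OIR, between 34.6 and 47.8 (mean 41.2 ± 4.34), and a median of 39.5 CPM in nonOIR, between 32.6 and 43.6 (mean 38.6 ± 3.64; SD, n = 8 each). The groups overlapped almost fully, and the difference was 0.09 ± 0.09 on the log2 scale (SE, edgeR adjusted p = 0.588), not past the test. Gins3 lay at 5.77 to 9.25 CPM in OIR, with median 6.80 and mean 7.07 ± 1.07, and at 3.79 to 12.3 CPM in nonOIR, with median 6.70 and mean 7.01 ± 2.75 (SD, n = 8 each). The OIR libraries all lay inside the nonOIR range, and the log2 fold change was 0.01 ± 0.22 (SE, edgeR adjusted p = 0.983), not past the test. Gins1 ran from 4.53 to 16.6 CPM with a median of 10.6 in OIR (mean 10.1 ± 4.05) and from 3.83 to 11.8 CPM with a median of 6.54 in nonOIR (mean 7.33 ± 3.02; SD, n = 8 each). 3 of the OIR libraries exceeded all of nonOIR, and the difference was 0.46 ± 0.29 on the log2 scale (SE, edgeR adjusted p = 0.336), not past the test. Gins2 was higher by 1.31 ± 0.39 on the log2 scale (SE, edgeR adjusted p = 0.0356) and levels of 3.54 to 26.4 CPM in OIR and 2.97 to 11.8 CPM in nonOIR. It lost the call without OIR replicate 3, 6, 7 or 8 or nonOIR replicate 1, 2, 3, 5, 6 or 7 (adjusted p between 0.0512 and 0.082). Of its 4097 exon bases, 2758 are shared with Gse1 on the opposite strand. Per kb of exon Gins4 was the highest member, with a mean level of 30.5 CPM per kb in OIR and 28.6 in nonOIR, against 3.39 in OIR and 1.37 in nonOIR for Gins2. Differences between the 4 subunits were not tested.

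**Figure D3:**
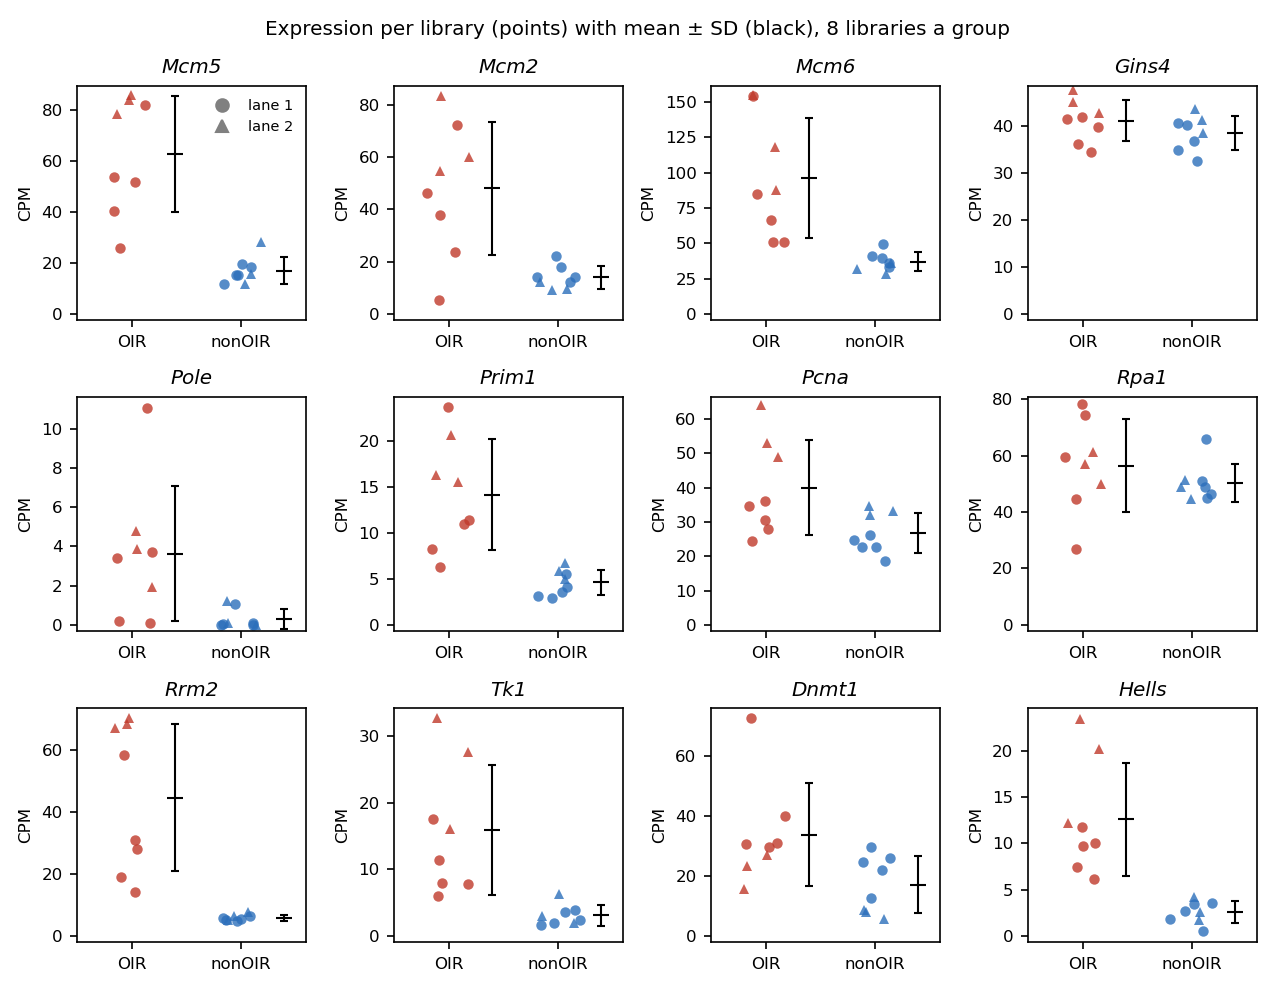
CPM in each library for 12 members, OIR left of nonOIR, with circles for lane 1, triangles for lane 2 and black bars for the mean ± SD of 8 libraries. Rrm2, Hells and Mcm6 show no overlap between groups, whereas Gins4 and Rpa1 overlap widely.

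Among the polymerase and primase genes 2 of 6 were called higher, Prim1 and Pole. Prim1, the catalytic subunit of the primase that lays down RNA primers, had a median of 13.4 CPM in OIR, between 6.31 and 23.8 (mean 14.1 ± 6.04), and a median of 4.59 CPM in nonOIR, between 2.91 and 6.72 (mean 4.63 ± 1.37; SD, n = 8 each). Only OIR replicate 2, at 6.31 CPM, lay inside the nonOIR range, and the log2 fold change was 1.61 ± 0.27 (SE, edgeR adjusted p = 0.000935). Prim2, the larger partner of Prim1, lay at 9.29 to 22.0 CPM in OIR, with median 13.7 and mean 14.1 ± 3.87, and at 5.66 to 15.9 CPM in nonOIR, with median 11.9 and mean 11.3 ± 3.47 (SD, n = 8 each). The ranges overlapped, and the difference was 0.32 ± 0.21 on the log2 scale (SE, edgeR adjusted p = 0.374), not past the test. Pole, the catalytic subunit of the leading-strand polymerase, ran from 0.119 to 11.1 CPM with a median of 3.59 in OIR (mean 3.64 ± 3.46) and from 0 to 1.20 CPM with a median of 0.0564 in nonOIR (mean 0.314 ± 0.512; SD, n = 8 each). OIR replicate 3 stood far above the others, 3 nonOIR libraries had no count, and the log2 fold change was 3.50 ± 1.01 (SE, edgeR adjusted p = 0.0329). Without OIR replicate 3, 6 or 7 or nonOIR replicate 1, 2, 3, 5 or 7 the adjusted p of Pole was between 0.0507 and 0.0742 and the call was lost. Pold1, the catalytic subunit of the lagging-strand polymerase, had a median of 18.3 CPM in OIR, between 3.22 and 30.3 (mean 17.3 ± 8.20), and a median of 11.1 CPM in nonOIR, between 3.08 and 17.0 (mean 10.2 ± 4.83; SD, n = 8 each). 5 of the OIR libraries exceeded all of nonOIR, and the difference was 0.77 ± 0.37 on the log2 scale (SE, edgeR adjusted p = 0.204), not past the test. Pola1, the catalytic subunit of the polymerase that extends primers, lay at 1.24 to 8.28 CPM in OIR, with median 6.82 and mean 6.32 ± 2.29, and at 1.41 to 11.0 CPM in nonOIR, with median 3.14 and mean 4.01 ± 3.26 (SD, n = 8 each). The highest library of all was in nonOIR, and the log2 fold change was 0.65 ± 0.42 (SE, edgeR adjusted p = 0.369), not past the test. Pola2, its accessory subunit, ran from 16.7 to 26.1 CPM with a median of 20.6 in OIR (mean 20.7 ± 2.92) and from 7.78 to 18.5 CPM with a median of 15.2 in nonOIR (mean 14.1 ± 4.18; SD, n = 8 each). All 8 OIR libraries lay above the nonOIR median, and the difference was 0.55 ± 0.18 on the log2 scale (SE, edgeR adjusted p = 0.0535), not past the test. It passed the test without nonOIR replicate 3 or 4 (adjusted p = 0.0427 and 0.0441).

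Of the sliding clamp Pcna and its 5 loader subunits, Rfc4 and Rfc5 were called higher. Pcna, the ring that tethers polymerases to DNA, had a median of 35.4 CPM in OIR, between 24.4 and 64.1 (mean 40.0 ± 13.9), and a median of 25.5 CPM in nonOIR, between 18.5 and 34.7 (mean 26.8 ± 5.83; SD, n = 8 each). 5 of the OIR libraries exceeded all of nonOIR, and the log2 fold change was 0.57 ± 0.19 (SE, edgeR adjusted p = 0.065), not past the test. Pcna passed the test without OIR replicate 1 or 2 (adjusted p = 0.0398 and 0.0306), and its reads may be shared with the pseudogenes Pcna-ps1 and Pcna-ps2. Rfc4 lay at 8.25 to 24.3 CPM in OIR, with median 13.0 and mean 15.1 ± 6.84, and at 3.78 to 10.2 CPM in nonOIR, with median 7.49 and mean 7.02 ± 1.92 (SD, n = 8 each). In 5 OIR libraries the level exceeded all of nonOIR, and the difference was 1.10 ± 0.26 on the log2 scale (SE, edgeR adjusted p = 0.0122). Rfc5 ran from 16.2 to 42.0 CPM with a median of 23.6 in OIR (mean 25.5 ± 9.19) and from 11.9 to 20.4 CPM with a median of 13.9 in nonOIR (mean 15.0 ± 3.14; SD, n = 8 each). In 6 OIR libraries it did so, and the log2 fold change was 0.77 ± 0.20 (SE, edgeR adjusted p = 0.0178). Rfc2, the loader subunit with the highest level per kb of exon, had a median of 71.2 CPM in OIR, between 63.5 and 92.7 (mean 75.4 ± 12.0), and a median of 61.3 CPM in nonOIR, between 51.0 and 68.0 (mean 60.4 ± 6.56; SD, n = 8 each). All 8 OIR libraries lay above the nonOIR median, and the difference was 0.32 ± 0.10 on the log2 scale (SE, edgeR adjusted p = 0.0551), not past the test. It passed without OIR replicate 1, 2 or 5 (adjusted p between 0.0392 and 0.0482), and 952 of its 6303 exon bases are shared with Lat2 on the opposite strand. Rfc3 lay at 13.0 to 25.2 CPM in OIR, with median 20.1 and mean 19.8 ± 3.86, and at 9.98 to 18.6 CPM in nonOIR, with median 15.9 and mean 14.6 ± 3.86 (SD, n = 8 each). The ranges overlapped in part, and the log2 fold change was 0.44 ± 0.18 (SE, edgeR adjusted p = 0.123), not past the test. Rfc1, the large subunit, ran from 15.8 to 52.3 CPM with a median of 30.8 in OIR (mean 33.1 ± 15.1) and from 15.6 to 47.5 CPM with a median of 26.5 in nonOIR (mean 29.4 ± 9.78; SD, n = 8 each). The ranges were nearly the same, and the difference was 0.17 ± 0.27 on the log2 scale (SE, edgeR adjusted p = 0.752), not past the test.

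Both genes for joining Okazaki fragments, the short pieces of the lagging strand, were higher in OIR. Lig1, the ligase that seals them, had a median of 25.9 CPM in OIR, between 12.7 and 36.7 (mean 25.7 ± 9.59), and a median of 7.72 CPM in nonOIR, between 3.52 and 16.9 (mean 8.62 ± 4.89; SD, n = 8 each). In 6 OIR libraries the level exceeded all of nonOIR, and the log2 fold change was 1.58 ± 0.33 (SE, edgeR adjusted p = 0.0043). Fen1, the nuclease that trims their flaps, lay at 1.92 to 3.50 CPM in OIR, with median 2.74 and mean 2.69 ± 0.531, and at 0.624 to 1.71 CPM in nonOIR, with median 0.938 and mean 1.09 ± 0.392 (SD, n = 8 each). The groups did not overlap, and the difference was 1.30 ± 0.31 on the log2 scale (SE, edgeR adjusted p = 0.0104). Of the 2422 exon bases of Fen1, 1909 are shared with Gm10143 on the opposite strand, and what that does to its low count was not tested. Of the 3 subunits of replication protein A, which coats single-stranded DNA in replication and repair alike, only Rpa2 was called. Rpa2 ran from 20.2 to 33.0 CPM with a median of 26.0 in OIR (mean 26.4 ± 4.33) and from 14.8 to 23.3 CPM with a median of 16.5 in nonOIR (mean 17.6 ± 2.89; SD, n = 8 each). A single OIR library lay inside the nonOIR range, and the log2 fold change was 0.59 ± 0.13 (SE, edgeR adjusted p = 0.00747). Rpa1, the large subunit, had a median of 58.2 CPM in OIR, between 26.9 and 78.3 (mean 56.5 ± 16.4), and a median of 48.9 CPM in nonOIR, between 44.6 and 66.1 (mean 50.3 ± 6.87; SD, n = 8 each). The OIR range enclosed the nonOIR range, and the difference was 0.17 ± 0.16 on the log2 scale (SE, edgeR adjusted p = 0.582), not past the test. Rpa3 lay at 7.78 to 17.5 CPM in OIR, with median 12.7 and mean 12.5 ± 3.32, and at 6.54 to 17.3 CPM in nonOIR, with median 9.21 and mean 10.8 ± 4.10 (SD, n = 8 each). The ranges nearly coincided, and the log2 fold change was 0.21 ± 0.23 (SE, edgeR adjusted p = 0.63), not past the test.

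Nucleotide supply was a role in which all listed genes, 6 of 6, were higher in OIR, against 3 with limma-voom. Their summed levels did not overlap, at 132 to 378 CPM in OIR and 96.6 to 113 CPM in nonOIR. Role sums were also without overlap for the copying of DNA methylation and chromatin, but in no other role. Elsewhere 4 (helicase activation) to 7 (origin recognition and helicase loading) of the 8 OIR libraries exceeded all of nonOIR. Rrm2, the small subunit of ribonucleotide reductase that is made in S phase, had the lowest adjusted p of the members. Its levels in OIR replicates 1 to 8 were 19.1, 14.3, 58.5, 28.2, 30.9, 67.1, 70.4 and 68.7 CPM, and those in nonOIR replicates 1 to 8 were 6.52, 5.76, 5.02, 5.51, 4.97, 7.62, 6.51 and 5.17 CPM. The OIR median was 44.7 CPM (mean 44.7 ± 23.8) and the nonOIR median 5.63 CPM (mean 5.88 ± 0.933; SD, n = 8 each). Every OIR library lay above every nonOIR library, and the difference was 2.92 ± 0.31 on the log2 scale (SE, edgeR adjusted p = 2.98e-05). Rrm1, the large subunit of the same enzyme, ran from 50.2 to 119 CPM with a median of 86.5 in OIR (mean 86.9 ± 26.4) and from 23.4 to 52.9 CPM with a median of 41.1 in nonOIR (mean 39.3 ± 10.4; SD, n = 8 each). Of the OIR libraries 7 exceeded all of nonOIR, and the log2 fold change was 1.15 ± 0.20 (SE, edgeR adjusted p = 0.00124). Per kb of exon the ratio of Rrm2 to Rrm1 was 0.959 to 2.81 in OIR and 0.450 to 1.11 in nonOIR. Set against Rrm2b, a small subunit known from cells outside S phase, Rrm2 per kb was 3.27 to 29.7 times as high in OIR and 0.795 to 2.00 times in nonOIR, with no overlap. Tk1, the thymidine kinase of the cytosol, had a median of 13.7 CPM in OIR, between 6.01 and 32.7 (mean 15.9 ± 9.77), and a median of 2.68 CPM in nonOIR, between 1.63 and 6.35 (mean 3.09 ± 1.56; SD, n = 8 each). In 7 OIR libraries the level exceeded all of nonOIR, and the difference was 2.36 ± 0.38 on the log2 scale (SE, edgeR adjusted p = 0.000709).

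Tyms, which makes thymidylate, had a log2 fold change of 0.95 ± 0.25, Dut, which removes dUTP, of 1.43 ± 0.38, and Dck, which salvages deoxycytidine, of 0.76 ± 0.22 (SE, edgeR adjusted p = 0.0219, 0.0213 and 0.0317). For each of the 3 genes 4 OIR libraries exceeded all of nonOIR. Tyms has a named pseudogene, Tyms-ps, that may share its reads. Dck lost its call without OIR replicate 6, 7 or 8 or nonOIR replicate 1, 2 or 5 (adjusted p between 0.0581 and 0.0699).

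The genes that copy DNA methylation and chromatin had a summed level of 43.0 to 125 CPM in OIR and 9.78 to 37.3 CPM in nonOIR, with no overlap. Uhrf1, which recognises DNA methylated on the old strand, lay at 6.12 to 40.6 CPM in OIR, with median 17.6 and mean 18.0 ± 10.7, and at 0.0434 to 6.05 CPM in nonOIR, with median 2.87 and mean 3.03 ± 1.78 (SD, n = 8 each). No OIR library lay inside the nonOIR range, and the log2 fold change was 2.58 ± 0.50 (SE, edgeR adjusted p = 0.00287). Hells, a chromatin remodeller needed for DNA methylation, ran from 6.14 to 23.5 CPM with a median of 10.9 in OIR (mean 12.6 ± 6.11) and from 0.504 to 4.19 CPM with a median of 2.66 in nonOIR (mean 2.57 ± 1.19; SD, n = 8 each). The groups again did not overlap, and the difference was 2.30 ± 0.36 on the log2 scale (SE, edgeR adjusted p = 0.000641). Dnmt1, the methyltransferase that Uhrf1 recruits, had a median of 30.0 CPM in OIR, between 15.5 and 72.5 (mean 33.7 ± 17.2), and a median of 17.3 CPM in nonOIR, between 5.50 and 29.6 (mean 17.1 ± 9.44; SD, n = 8 each). 4 of the OIR libraries exceeded all of nonOIR, OIR replicate 3 stood far above the others, and the log2 fold change was 0.98 ± 0.35 (SE, edgeR adjusted p = 0.0773), not past the test.

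Of the 3 genes for fork protection, Clspn and Tipin were called higher. Clspn, claspin, which passes the checkpoint signal to Chk1, lay at 0.974 to 5.04 CPM in OIR, with median 2.37 and mean 2.62 ± 1.30, and at 0 to 1.15 CPM in nonOIR, with median 0.385 and mean 0.420 ± 0.331 (SD, n = 8 each). Of the OIR libraries 7 exceeded all of nonOIR, and the difference was 2.64 ± 0.58 on the log2 scale (SE, edgeR adjusted p = 0.00647). Timeless, which binds Tipin at the fork, ran from 0.596 to 15.9 CPM with a median of 7.68 in OIR (mean 7.93 ± 4.45) and from 0 to 5.33 CPM with a median of 1.90 in nonOIR (mean 2.09 ± 1.79; SD, n = 8 each). Only OIR replicate 1 lay inside the nonOIR range, and the log2 fold change was 1.94 ± 0.68 (SE, edgeR adjusted p = 0.0765), not past the test. It passed without that library (adjusted p = 0.0329). Tipin had a median of 35.3 CPM in OIR, between 25.5 and 44.5 (mean 35.7 ± 6.20), and a median of 22.2 CPM in nonOIR, between 16.3 and 34.9 (mean 23.8 ± 6.19; SD, n = 8 each). 5 of the OIR libraries exceeded all of nonOIR, and the difference was 0.59 ± 0.16 on the log2 scale (SE, edgeR adjusted p = 0.021).

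With lane 1 alone (5 against 5 libraries) 7 of 46 tested members were called higher, Mcm5, Prim1, Rrm2, Tk1, Uhrf1, Hells and Tipin, against 2.20% of all genes tested there, and Pole had too few counts there to be tested. With lane 2 alone (3 against 3) 31 of 47 were called, against 9.63%, and 6 of the 7 were called in both lanes, the exception being Tipin. The log2 fold change was above 0 for 46 of 46 members in lane 1 and 46 of 47 in lane 2, where Rfc1 stood at -0.20 ± 0.24 (SE). Its median was 0.68 in lane 1 and 1.67 in lane 2, and it was larger in lane 2 for 37 members. In the role of origin recognition and loading 1 of 11 members was called in lane 1 and 9 in lane 2, and in nucleotide supply 2 of 6 were called in lane 1 and 6 in lane 2.

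The difference between lanes was itself tested, and an interaction of group and lane was called for 0.496% of all genes, 62 in number, and for 0 of 47 members by edgeR and by limma-voom. At an unadjusted p under 0.05 it held for 11 of 47 members, 23.4%, against 13.1% of all genes (1632 genes), and each of the 11 had the larger difference in lane 2. Rrm1 had the lowest adjusted p among members, 0.0714, with log2 fold changes of 1.96 ± 0.16 in lane 2 and 0.72 ± 0.20 in lane 1 (SE). Rrm1 averaged 75.2 CPM in OIR and 45.9 CPM in nonOIR in lane 1, and 106 CPM in OIR and 28.2 CPM in nonOIR in lane 2. Rrm2 had log2 fold changes of 2.45 ± 0.32 in lane 1 and 3.46 ± 0.19 in lane 2 (edgeR adjusted p of the difference = 0.363). Dnmt1 was lower in lane 2 within both groups, averaging 40.7 CPM in OIR and 22.9 CPM in nonOIR in lane 1, and 21.9 CPM in OIR and 7.32 CPM in nonOIR in lane 2. Several lists of other cells' markers were also read by lane. Of the border macrophage markers 4 of 7 tested were higher there, Mrc1, Lyve1, Cbr2 and Folr2, and 0 of 6 tested in lane 1. Their sum in lane 2 was 235 to 308 CPM in OIR and 13.2 to 136 CPM in nonOIR, without overlap, and in lane 1 it was 9.44 to 129 CPM in OIR and 15.0 to 146 CPM in nonOIR. The log2 fold change of Folr2, a folate receptor, was 2.69 ± 0.55 in lane 2 and 0.30 ± 0.56 in lane 1 (SE), the lowest adjusted p of a lane difference in that list (edgeR, 0.193). F13a1, a coagulation factor subunit listed with the monocyte markers, stood at 2.87 ± 0.76 in lane 2 and -0.12 ± 0.96 in lane 1 (SE, edgeR adjusted p within lane 2 = 0.0383 and within lane 1 = 0.973). F13a1 was the highest of the 6 tested monocyte markers in lane 2 and the lowest in lane 1. Of the 6, 2 were called higher in lane 2 and 1 in lane 1, and 0 lower in either. Their log2 fold changes ran from -0.87 to 2.87 in lane 2 and from -0.12 to 2.36 in lane 1. Monocyte markers summed in lane 2 to 194 to 204 CPM in OIR and 36.6 to 98.8 CPM in nonOIR, and in lane 1 to 60.2 to 101 CPM in OIR and 43.9 to 106 CPM in nonOIR. Erythroid markers had 4 of 5 tested higher in lane 2 and 1 of 1 in lane 1. Of 10 microglial markers 6 were lower and 1 higher in lane 2, and 3 were lower and 0 higher in lane 1. The lane difference was called for 0 of the tested markers in these 4 lists, and the lowest adjusted p, among the microglial markers, was 0.0507 (edgeR). The part of these markers in the members' lane difference was not tested. With lane as a covariate 34 members were called higher, and the 5 added were Cdc6, Dnmt1, Pcna, Pola2 and Rfc2.

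**Figure D4:**
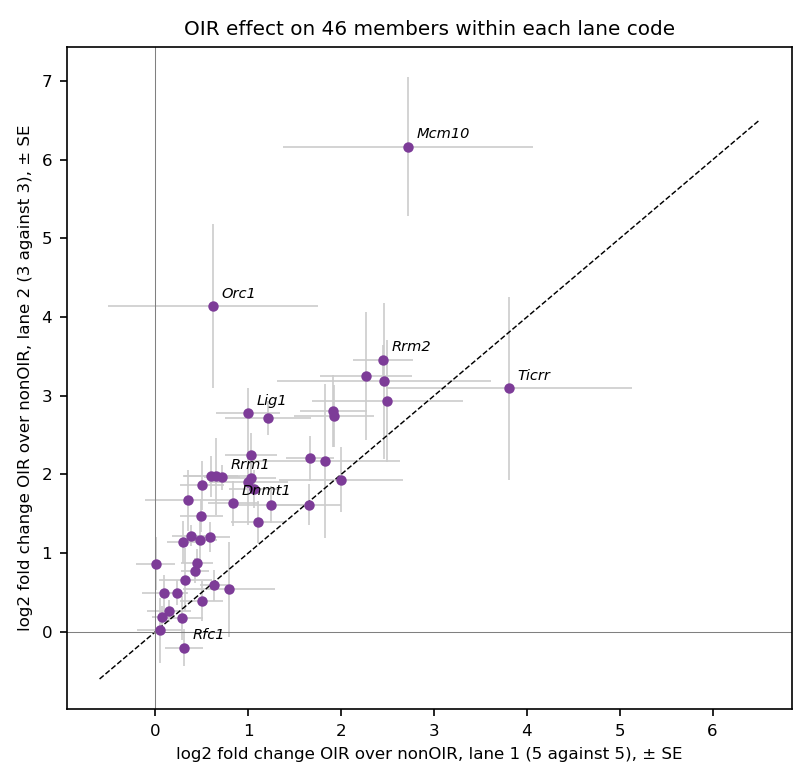
Log2 fold change of OIR over nonOIR in lane 1 (horizontal, 5 against 5 libraries) and lane 2 (vertical, 3 against 3) for the 46 members tested in both, with bars of 1 standard error and a dashed line of equality. For 37 members the value in lane 2 is the larger, and Rfc1 lies below 0 in lane 2. The standard errors are back-calculated from the test statistic.

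Without OIR replicate 1 and nonOIR replicate 8, 1435 genes of all were called, against 1368 with them. There 33 members were called higher, against 6.84% of all genes tested, and 0 lower. In the same fits 26 mitosis genes, 12 wider replication genes and 5 wider nucleotide genes were higher, and 41 genes of all differed between lanes. The 29 calls of all libraries were kept and Cdc6, Pcna, Rfc2 and Timeless were added. The authors' deposited table, made with DESeq2 per the submitters' processing notes, calls 34 members higher and 0 lower at its adjusted p under 0.05. Of those, 28 were shared with edgeR, the authors' deposited table alone has Cdc6, Dnmt1, Pcna, Pola2, Rfc2 and Timeless, and edgeR alone had Mcm10.

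Other genes of the same pathways were taken from lists chosen with earlier results known. The median log2 fold change of 42 tested genes in a wider replication list was 0.39. Of them, 10 were higher in OIR and 1 was lower, against 6.39% and 4.56% of all tested genes. Those with the lowest p were Top2a, the topoisomerase that untangles copied DNA, at 51.4 ± 26.6 CPM in OIR and 5.46 ± 3.24 CPM in nonOIR, and Asf1b, a histone chaperone, at 32.8 ± 18.3 CPM in OIR and 9.33 ± 3.94 CPM in nonOIR (SD, n = 8). Topbp1, which activates the helicase with Ticrr, averaged 30.9 ± 11.8 CPM in OIR and 13.7 ± 3.12 CPM in nonOIR, and Rnaseh2b, a subunit that removes RNA from DNA, 27.2 ± 6.58 CPM in OIR and 17.2 ± 3.94 CPM in nonOIR. Their edgeR adjusted p lay between 0.000467 and 0.0161. Orc5, a subunit of the origin recognition complex, was lower, at 31.4 ± 4.33 CPM in OIR and 39.7 ± 4.00 CPM in nonOIR (SD, n = 8, edgeR adjusted p = 0.0421). The count of 10 became 6 without OIR replicate 3, 7 or 8 or nonOIR replicate 2, and 1 with lane 1 alone.

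Of 32 wider nucleotide genes, 2 were higher and 2 lower, against 6.39% and 4.56% of all tested genes. The median log2 fold change of the 32 was 0.18. Dtymk, which makes dTDP, averaged 31.4 ± 6.17 CPM in OIR and 21.6 ± 3.03 CPM in nonOIR, and Nme1, a nucleoside diphosphate kinase, 56.9 ± 21.1 CPM in OIR and 32.8 ± 5.60 CPM in nonOIR (edgeR adjusted p = 0.0137 and 0.0125). Dguok, the deoxyguanosine kinase of mitochondria, was lower, at 60.3 ± 8.77 CPM in OIR and 79.0 ± 9.13 CPM in nonOIR, as was the nucleoside transporter Slc29a1, at 210 ± 19.6 CPM in OIR and 266 ± 22.0 CPM in nonOIR (SD, n = 8, edgeR adjusted p = 0.0157 and 0.00632). The count of 2 higher became 6 without OIR replicate 1 and 4 without OIR replicate 2.

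Of 27 mitosis genes, 23 were higher and 0 lower, against 6.39% and 4.56% of all tested genes. The count lower was 0 also at an unadjusted p under 0.05, with DESeq2 and with limma-voom. The median log2 fold change of the mitosis genes was 2.91 against 1.15 for the replication members, a difference that was not tested. Ccnb1, the mitotic cyclin B, averaged 11.8 ± 7.17 CPM in OIR and 1.17 ± 0.356 CPM in nonOIR. Nusap1, Bub1b and Cdca8, which act on the spindle, were 8.51-fold, 8.31-fold and 7.52-fold higher (edgeR adjusted p between 0.000107 and 0.000202 for the 4 genes). Summed mitosis levels were 142 to 1085 CPM in OIR and 66.3 to 125 CPM in nonOIR. OIR replicates 1 and 2 were the lowest OIR libraries for both sums, while the highest was replicate 3 for replication and replicate 6 for mitosis. With lane 1 alone 13 mitosis genes were called.

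Markers of other cells were read beside these results, and their part in them was not tested. Among the microglial markers, Tmem119 and P2ry12 were lower in OIR. Of 10 markers of monocytes and infiltrating macrophages 6 were tested and 2 were higher, Cd44 and Ms4a4c, with a summed level of 60.2 to 204 CPM in OIR and 36.6 to 106 CPM in nonOIR, and Ly6c2 was at 0 in all 16 libraries. Granulocyte markers summed to at most 3.61 CPM in OIR and 0.985 CPM in nonOIR and lymphocyte markers to at most 0.360 CPM in OIR and 0.847 CPM in nonOIR, with Ly6g, Ngp, Elane, Cd3e, Cd3d, Nkg7 and Gzmb at 0 throughout. Of 7 border macrophage markers 0 were called by edgeR and limma-voom, 1 by DESeq2 and 2 at an unadjusted p under 0.05, all higher, over both lanes together, and the sum was 9.44 to 308 CPM in OIR and 13.2 to 146 CPM in nonOIR. Erythroid markers had 2 of 7 tested, and both, Hbb-bs and Hbb-bt, were higher by edgeR, with 2 higher by DESeq2 and 0 by limma-voom, and with a sum of 1.87 to 292 CPM in OIR and 0 to 28.9 CPM in nonOIR. Rod markers summed to 38.1 to 406 CPM in OIR and 57.8 to 501 CPM in nonOIR and endothelial and pericyte markers to 8.68 to 37.8 CPM in OIR and 20.8 to 42.2 CPM in nonOIR. Of these, 0 of 8 rod and 0 of 3 tested vessel markers were called by edgeR, DESeq2 or limma-voom or had an unadjusted p under 0.05. Of the Müller glia and astrocyte markers 1 of 5 tested, Glul, was lower by edgeR, with 3 lower by DESeq2 and 2 by limma-voom. The sum of 2138 to 19529 CPM in OIR and 1245 to 10510 CPM in nonOIR was mostly Apoe, which microglia also make. This sum split by lane, at 10326 to 19529 CPM in OIR and 7807 to 10510 CPM in nonOIR in lane 1. In lane 2 it was 2138 to 2362 CPM in OIR and 1245 to 1966 CPM in nonOIR.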

How the data were processed

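RNA was read as 50-base single reads from libraries made of 750 pg of total RNA with 12 amplification cycles and 150 pg of cDNA, per the labels' protocols. The SMARTer and Nextera workflow named there marks neither strand nor single molecules. Reads of overlapping genes therefore cannot be told apart by strand, and errors from counting alone are too small. Whether reads over overlapping genes were counted or left out was not examined.

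Counts of whole reads per gene were deposited by the authors. Tools listed in the submitters' processing notes are STAR 2.6.0b-1 and featureCounts 1.6.2, then FastQC 0.72 and DESeq2 2.11.40.2, with the mm10 build. The gene annotation used for them is not given in the sources. The authors' normalized signal columns are the counts after division by a constant for each library, with the largest relative spread of that factor under 1e-06, and the base mean is their signal average. The authors' deposited table also gives a log2 fold change, a Wald score and p-values, used only to compare calls.

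The main test was the quasi-likelihood test of edgeR 4.0.16 under R 4.3.3 (robust glmQLFit, then glmQLFTest, two-sided) after TMM scaling and a filterByExpr filter. Its p-values were adjusted by Benjamini-Hochberg over the 12496 genes left, and 0.05 was the threshold. All adjusted p-values of the report come from this test unless the authors' table is named. Each SE is the absolute log2 fold change divided by the square root of the test's F statistic. It was back-calculated from the test and is not a separate measure of spread. The biological coefficient of variation was 40.3%. Group and replicate came from the titles and the lane from the description label. Alternatives were other scalings and filters, DESeq2 1.42.0 (which by default replaces single outlying counts at this group size), limma-voom (limma 3.58.1), lane terms, the replicate number as a block and the omission of each library. The pair of libraries taken as outlying was left out together as an alternative chosen after seeing the data. The test was tried on simulated counts. A first recovery criterion was missed there, the planted genes were then limited to higher counts and the criterion was lowered, so no recovery rates are given. No 2 libraries of a group agreed within sampling noise (the lowest chi-square per gene was 15.4 over 56 pairs). Levels per kb divide CPM by the union of exons in GENCODE M21, where 54409 gene identifiers were found.

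The members, their roles and the other lists were chosen with earlier results of these data known. All 47 members are named. Full values are given, in each role, for the 2 largest log2 fold changes, the highest mean CPM and every member not called, and always for Rrm2, Pcna and Mcm5. Of the other lists, those with the lowest p were named, up to 4 in each direction, and cell type markers mainly as sums. Values of some single marker genes are not reported here.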

Additional observations from a re-analysis of the deposited data

Results flagged for a closer look

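In each group of 8 libraries the highest and lowest values of the members and of the summed levels were compared with the nearest other library, over 98 groups of values. A gap larger than Dixon's critical share of the group's whole range was found in 7, where chance gives about 1 in 20.

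OIR replicate 3 was far above the other OIR libraries for Mcm4 (91.9 CPM), Pole (11.1 CPM) and Dnmt1 (72.5 CPM). OIR replicate 2 was far below them for Pola1, at 1.24 CPM. In nonOIR, replicate 4 stood far above the others for Orc1 (1.70 CPM), replicate 5 for Rpa1 (66.1 CPM) and replicate 3 for Clspn (1.15 CPM). Without OIR replicate 3 the call of Pole was lost (edgeR adjusted p = 0.0742), as given above.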

How the results depend on the processing

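With each library left out in turn, 24 to 33 members were called higher and 0 to 0 lower, their median log2 fold change was 1.09 to 1.23, 935 to 1556 genes of all were called, 23 to 25 mitosis genes, 6 to 13 wider replication genes and 2 to 6 wider nucleotide genes were higher, and 21 to 145 genes differed between lanes. With lane 1 alone 417 genes, 7 members, 13 mitosis genes, 1 wider replication gene and 0 wider nucleotide genes were called and the members' median was 0.68, with lane 2 alone 6 wider nucleotide genes and a median of 1.67, and with lane as covariate 2159 genes and 7 wider nucleotide genes. The wider nucleotide count was 4 with library size alone, 7 with DESeq2 and 5 without OIR replicate 1 and nonOIR replicate 8, where 41 genes differed between lanes. Members called higher numbered 35 with DESeq2, 23 with limma-voom and 25 without the low-count filter. Of the 29 calls, 6 (Hells, Mcm5, Prim1, Rrm2, Tk1 and Uhrf1) held under every setting run and 12 were lost with lane 1 alone and nowhere else, while Mcm10 was lost in 16 of 28 settings, Gins2 in 12, Dck in 8, Pole in 11 of 27 and Ticrr in 9 of 27. The log2 fold change of Gins3 turned negative with upper-quartile scaling (-0.015) and ranged over -0.076 to 0.18 in single omissions, and the log2 fold change of Rfc1 was -0.20 with lane 2 alone. The cause was not tested. Same-numbered libraries correlated above 0.1 in 4 of 8 pairs (-0.000179 to 0.262) and 2 of 8 libraries correlated best with their own number. Same-numbered libraries also share a lane code, which was not removed from these correlations. The labels do not say whether the numbers pair libraries, and the correlations cannot settle it. With the replicate block 29 members were called, Mcm10 and Ticrr being lost and Dnmt1 and Pcna gained, and 1679 genes of all. Low counts limit Orc1, Cdc6, Mcm10, Ticrr, Pole, Clspn and Timeless, which were at 0 in some nonOIR libraries.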
